A study of Mus musculus with 2 samples.

Results

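Fatty acid handling was followed through 9 genes, Lpl, Gpihbp1, Angptl4, Cd36, Fabp3, Fabp4, Fabp5, Pnpla2 and G0s2, which were chosen by name out of the 32285 genes listed for both libraries, and all 9 were found once in each. The libraries came from single cells of mouse mitral leaflets, the flaps of the valve between the left atrium and ventricle, at embryonic day 17.5. The control library was labelled wild type and the mutant library Nfatc1-Cre, Dicer loxp/loxp. In the mutant, Cre recombinase is driven by Nfatc1, a gene active in the endocardium and valve endothelium, and acts on loxP-flanked copies of Dicer1, the enzyme that cuts microRNA precursors. There was 1 library per genotype, and cells of 3 to 4 hearts were combined in each, so no value has a replicate error and no test between genotypes was possible. The intervals given are 95% exact intervals and cover counting error only. The labels do not say whether the wild type embryos were littermates or carried any allele of the cross.

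Circulating triglyceride is split at the capillary wall by lipoprotein lipase, the product of Lpl, which is made by parenchymal cells and held on the capillary surface by the endothelial anchor protein Gpihbp1. Angptl4 inhibits the lipase, Cd36 takes up the freed long-chain fatty acids, and the small carrier proteins encoded by Fabp3, Fabp4 and Fabp5 bind them inside cells. Inside cells, the lipase encoded by Pnpla2 releases fatty acids from stored droplets and G0s2 inhibits that lipase. Heart muscle relies on this supply more as it matures.

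Because the mutant was bred to lose the microRNA-making enzyme, the annotated 3′ untranslated regions of the 9 genes were searched for matches to microRNA seeds. The seed is bases 2 to 8 of a mature microRNA, shown here in capitals for the microRNAs whose matches lie in Lpl or G0s2. These 2 genes were picked after their values had been seen, since their differences between the libraries are the ones described at most length below. The sequences are from RefSeq on build GRCm38.
miR-27a-3p: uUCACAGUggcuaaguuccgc
miR-27b-3p: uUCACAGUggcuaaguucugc
miR-29a-3p: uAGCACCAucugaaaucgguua
miR-24-3p: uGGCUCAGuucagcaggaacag
miR-23a-3p: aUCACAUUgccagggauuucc
miR-148a-3p: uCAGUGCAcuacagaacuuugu
miR-16-5p: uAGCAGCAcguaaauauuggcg
miR-15a-5p: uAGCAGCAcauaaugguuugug
miR-27a-3p and miR-27b-3p share 1 seed, and miR-16-5p and miR-15a-5p share another.

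In all, 29 mature microRNAs with 27 different seeds were searched, on the sense strand only, and the heptamers below in capitals are the exact reverse complements of the seeds. The 3′ untranslated region of Lpl (chr8:68880491-68907448, plus strand, build GRCm38) has 2428 bases and held 5 of the 27 heptamers.
Lpl match to miR-148a-3p, at base 1529: agttcaaattcTGCACTGtgcaaagtaca
Lpl match to miR-27a-3p and miR-27b-3p, at base 1840: tgggagcagaaACTGTGAaatttgtgggt
Lpl match to miR-23a-3p, at base 1907: agtcgtcattcAATGTGAttcagaaagga
Lpl match to miR-29a-3p, at base 2264: gtatagatttgTGGTGCTaactttgtgtc
Lpl match to miR-24-3p, at base 2309: tgtctgtctcaCTGAGCCaacttaactct
These stretches lie at chr8:68906024-68906052, chr8:68906335-68906363, chr8:68906402-68906430, chr8:68906759-68906787 and chr8:68906804-68906832. The matches to miR-27a-3p, miR-29a-3p and miR-24-3p in Lpl are followed by an A, the base that extends a seed match by 1 position.

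G0s2 (chr1:193272161-193273217, minus strand) has a 3′ untranslated region of 302 bases, which held 2 of the 27 heptamers.
G0s2 match to miR-16-5p and miR-15a-5p, at base 132: tgggactgattTGCTGCTgtgcagcacgc
G0s2 match to miR-27a-3p and miR-27b-3p, at base 150: gtgcagcacgcACTGTGAtttgccctagg
They lie at chr1:193272314-193272342 and chr1:193272296-193272324, and neither is followed by an A. The heptamer ACTGTGA, which Lpl and G0s2 share, was present in the longest 3′ untranslated region of 16% of 20469 protein-coding genes, and those of the other matches in 12.7% (TGCACTG), 15% (AATGTGA), 13.1% (TGGTGCT), 16.2% (CTGAGCC) and 20.2% (TGCTGCT). Of the other members, Cd36 and Angptl4 held 5 heptamers each, Pnpla2 held 4, Gpihbp1 held 3 and Fabp3 and Fabp5 held 1 each. The heptamers held by these members were each present in 6.57% (GTGCAAT, in Gpihbp1) to 20.2% (TGCTGCT, in Pnpla2) of the same 20469 genes. Matches to single heptamers were thus common among all genes. Whether the members hold more matches than other genes was not tested. Fabp4 held none of the 27 in its 432 bases. A match describes the letters only, and no microRNA was measured in these libraries.

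The control library kept 10297 cells with a median of 5665 unique molecular identifiers (UMIs, counted molecules) per cell, and the mutant library kept 6190 cells with a median of 9497. Levels are therefore given as CPM, the UMIs of a gene per 1000000 UMIs of a cell class, and shares of cells with a UMI are given after each cell was thinned to 2000 UMIs. Of the kept cells, 93.5% in the control and 42.5% in the mutant library were female-type by X and Y transcripts and 0.00971% and 37.1% were male-type, so the sexes were not balanced between the genotypes. The libraries shared 19 cell barcodes, 11 of them among kept cells. Dicer1 was read by 3′ tags, which need not cover the loxP-flanked exons, so its level does not check the deletion. Dicer1 in the valve endothelial-like class stood at 90.1 CPM in the control and 39.1 CPM in the mutant library. The log2 ratio there was -1.20 (-1.50 to -0.91), and it lay between -0.45 and 0.01 in the other classes compared.

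Cells were grouped into 28 clusters with the 9 genes and a list of 83 further lipid genes left out of the clustering, and 23 of the clusters were named from marker genes. The 14 resulting classes were cardiomyocyte-like, capillary-like, arterial-like, lymphatic-like, valve endothelial-like, valve interstitial-like, fibroblast-like, mural-like (pericytes and smooth muscle), epicardial-like, macrophage-like, monocyte-like, granulocyte-like, mast or basophil-like and melanocyte-like. Valve interstitial-like cells were 26.4% of the control and 13.5% of the mutant cells, valve endothelial-like cells 11.6% and 4.65%, and capillary-like cells 18.0% and 26.2%. The leaflet dissection therefore held heart muscle and coronary vessel cells beside the valve's own cells in both libraries. The 5 unnamed clusters held 9.76% of the control and 14.5% of the mutant cells. Fat cells, which are known for Lpl, Cd36, Fabp4 and Pnpla2, were not seen as a class: over the 8 classes compared, their markers Adipoq and Cfd had 0 UMIs in both libraries, and Adig, Retn and Ucp1 had at most 3 UMIs in any class. Taken as 3 counts, the limit that 0 UMIs allow was 2.46 CPM in the smallest of these classes, the control arterial-like cells.

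**Figure D1:**
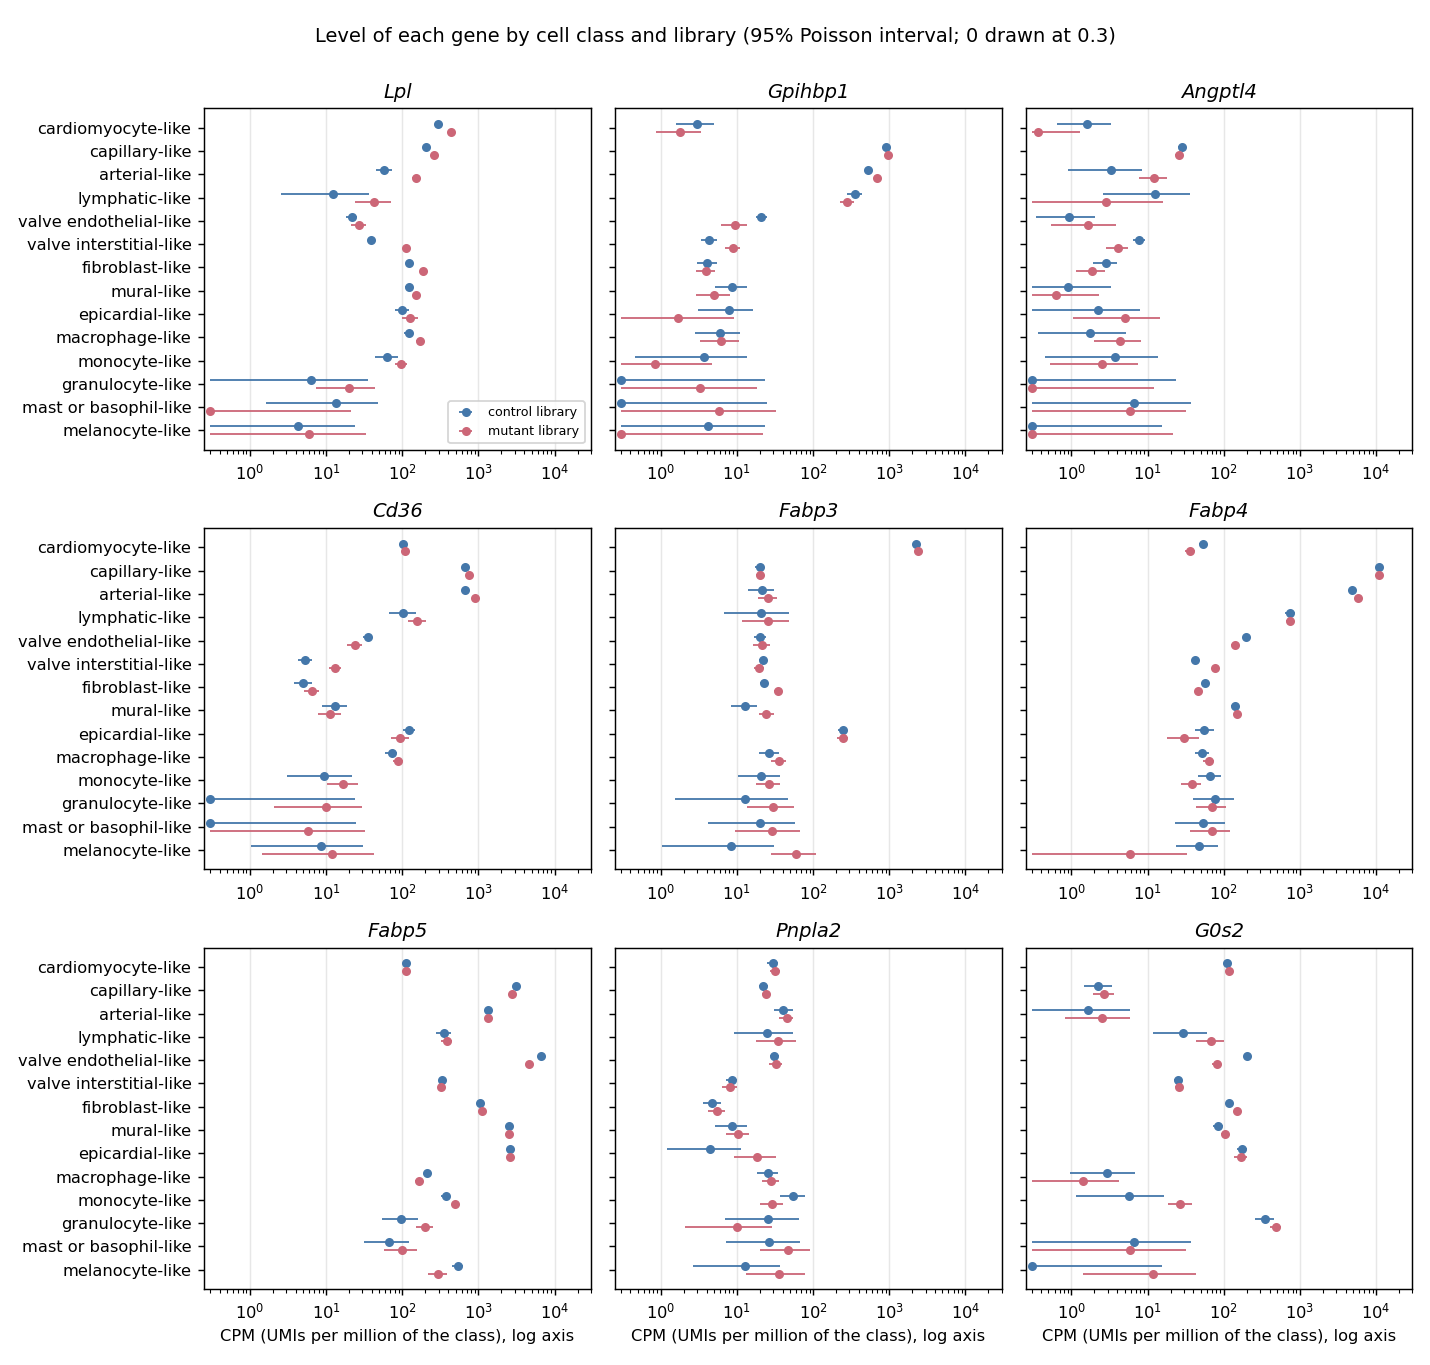
Level of each of the 9 genes (x axis, CPM, log axis) in the 14 cell classes (y axis) in the control library (blue) and the mutant library (red), with exact 95% Poisson intervals and levels of 0 drawn at 0.3. Fabp3 stands out in cardiomyocyte-like cells, Gpihbp1 and Fabp4 in the capillary-like, arterial-like and lymphatic-like cells, and Lpl spans muscle, vessel and stromal classes.

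The lipase gene Lpl was spread over muscle, vessel and stromal cells and was low in the valve endothelium. In the control library it was highest in cardiomyocyte-like cells at 298 CPM (282 to 314), followed by capillary-like cells at 203 CPM (194 to 212). Fibroblast-like, mural-like and macrophage-like cells stood at 124, 124 and 122 CPM, with intervals that overlapped, and epicardial-like cells at 99.1 CPM. Below them came monocyte-like cells at 63.7, arterial-like cells at 57.3, valve interstitial-like cells at 38.8 and valve endothelial-like cells at 21.7 CPM (18.3 to 25.7). The 4 remaining classes had 1 to 3 Lpl UMIs each in the control library. Per cell thinned to 2000 UMIs, 40.5% of cardiomyocyte-like, 27.0% of capillary-like and 4.07% of valve endothelial-like control cells had an Lpl UMI.

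No single class held most of the Lpl transcripts. Of all Lpl UMIs in kept control cells, 29.3% lay in capillary-like, 19.9% in fibroblast-like and 17.8% in cardiomyocyte-like cells, where 16.97%, 18.8% and 7.04% of all UMIs lay. In the mutant library these classes held 30.2%, 17.3% and 18.9% of the Lpl UMIs. These shares move with the makeup of each dissection. The 2 cardiomyocyte-like clusters differed in Lpl. Cluster 10, led by Ttn and Tnnt2, stood at 315 CPM in the control and 469 CPM in the mutant library, and cluster 21, led by Tnnt2 and Actc1 and shallower (median 3829 and 5714 UMIs against 11020.5 and 18110), at 39.7 and 42.4 CPM.

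**Figure D2:**
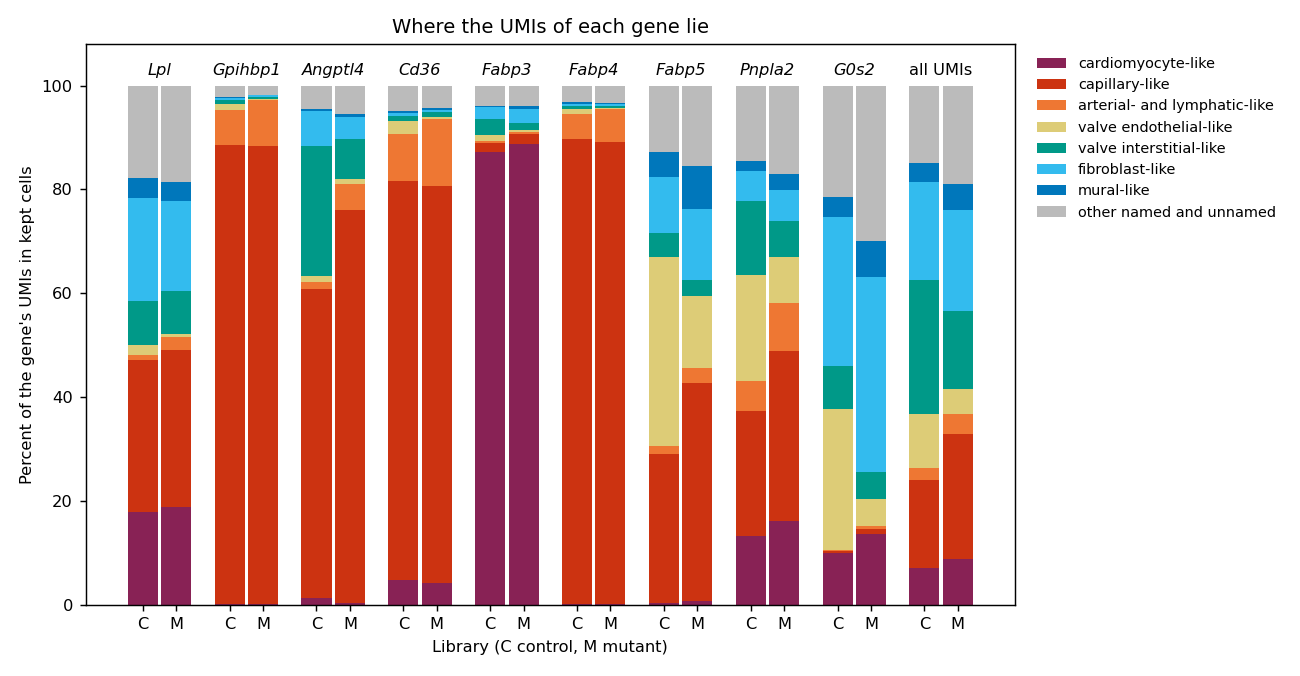
Share of each gene's UMIs (y axis, percent of the gene's UMIs in kept cells) that lay in each cell class, for the control (C) and mutant (M) library, with all UMIs at the right for scale. Fabp3 lay mostly in cardiomyocyte-like cells, Gpihbp1, Cd36 and Fabp4 mostly in capillary-like cells, and Lpl, Fabp5, Pnpla2 and G0s2 were spread over several classes.

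The anchor gene Gpihbp1 was a gene of blood and lymph vessel cells. It stood at 896 CPM in control and 974 CPM in mutant capillary-like cells, at 522 and 687 CPM in arterial-like cells, and at 352 and 282 CPM in lymphatic-like cells. All other classes were at or below 21.0 CPM in both libraries, with valve endothelial-like control cells the next in order. Capillary-like cells held 88.4% of the Gpihbp1 UMIs in the control and 88.2% in the mutant library.

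Angptl4, the lipase inhibitor, was low in every class. Its highest level was 28.1 CPM (25.0 to 31.5) in control and 25.6 CPM (23.1 to 28.3) in mutant capillary-like cells. Valve interstitial-like cells stood at 7.78 and 4.07 CPM, below the level floor for comparison. The capillary-like class held 59.4% and 75.7% of its 502 UMIs in each library, and valve interstitial-like cells 25.1% and 7.57%. With the class set per cell from its own markers, the capillary-like share in the control library was 38.4%. That setting named fewer cells capillary-like, 1226 against 1857, and left cells without a clear class unlabelled.

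The uptake gene Cd36 was shared by capillary-like and arterial-like cells. They stood at 669.8 CPM (654 to 686) and 666 CPM (621 to 713) in the control library, with overlapping intervals, and at 743 and 912 CPM in the mutant library. Epicardial-like cells at 124 and 93.6 CPM, lymphatic-like cells at 104 and 157 CPM, cardiomyocyte-like cells at 102 and 110.1 CPM and macrophage-like cells at 72.4 and 88.5 CPM formed a middle group. Valve interstitial-like and fibroblast-like control cells had 5.31 and 5.02 CPM. In granulocyte-like and mast or basophil-like control cells Cd36 had 0 UMIs, with upper interval limits of 23.7 and 24.6 CPM. Within heart muscle, cluster 10 had 108 and 118 CPM of Cd36 and the shallower cluster 21 had 18.0 and 5.30 CPM.

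The 3 carrier genes were highest in different classes, but Fabp4 and Fabp5 overlapped in capillary-like cells. There, 98.4% of control and 98.5% of mutant cells, unthinned, had UMIs of both. Fabp3, the heart-type carrier, stood at 2273 CPM (2229 to 2318) in control and 2405 CPM in mutant cardiomyocyte-like cells, and 96.9% and 97.2% of the thinned cells had a UMI. Epicardial-like cells came next at 245 and 246 CPM. Every other class stood between 8.48 and 59.3 CPM. Cardiomyocyte-like cells held 87.1% of the Fabp3 UMIs in the control and 88.7% in the mutant library, with 7.04% and 8.89% of all UMIs. Fabp3 has a processed pseudogene, so reads could be split between the copies.

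Fabp4, the adipocyte-type carrier, was highest in vessel cells here. Capillary-like cells had 10835 CPM in the control and 11065 CPM in the mutant library, with a UMI in 99.7% of the thinned cells of each. Arterial-like cells followed at 4893 and 5865 CPM and lymphatic-like cells at 741 and 750.0 CPM. The unnamed cluster 20, led by Emcn and Aplnr and closest to the vein marker list, had 7244 and 8718 CPM. All other named classes had 42.3 to 194 CPM in the control library and 5.93 to 151 CPM in the mutant library.

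Those low Fabp4 levels were set beside Gpihbp1, the other vessel gene. Capillary-like cells had 12.1 Fabp4 UMIs per Gpihbp1 UMI in the control and 11.4 in the mutant library, and arterial-like cells 9.38 and 8.53. Valve interstitial-like cells had 9.80 (7.66 to 12.7) and 8.63 (6.86 to 10.99), fibroblast-like cells 14.1 and 11.6, and macrophage-like cells 8.80 and 10.3. The ratio was farther off in cardiomyocyte-like cells, at 18.2 (10.4 to 34.6) and 19.9 (10.6 to 42.1), and in mural-like cells, at 16.4 (10.3 to 27.7) and 30 (18.3 to 52.9). In valve endothelial-like cells it was 9.25 (7.74 to 11.1) and 14.8 (10.1 to 22.5). The share of thinned cells with a Fabp4 UMI lay between 6.68% and 16.2% in cardiomyocyte-like, valve and stromal, mural-like and macrophage-like cells of both libraries. The part of vessel RNA carried over from other cells in these values was not tested.

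Fabp5, the epidermal-type carrier, was the most abundant of the 9 genes in the valve endothelium. Valve endothelial-like cells led at 6529.9 CPM (6468 to 6593) in the control and 4569 CPM (4493 to 4647) in the mutant library. Capillary-like cells had 3109 and 2787 CPM, epicardial-like cells 2625 and 2593 CPM and mural-like cells 2501 and 2549 CPM, where the epicardial-like and mural-like intervals overlapped. Arterial-like cells had 1351 and 1329 CPM, fibroblast-like cells 1045 and 1117 CPM, valve interstitial-like cells 329.6 and 323 CPM and cardiomyocyte-like cells 112 and 113 CPM. Heart muscle, the class highest in Fabp3, was among the lowest in Fabp5, while epicardial-like cells were high in both. Within the valve endothelium, cluster 7, led by Emcn and Plvap, had 9120 and 6379 CPM and cluster 12, led by Hapln1 and Wnt4, had 3038 and 2309 CPM. Valve endothelial-like cells held 36.5% of the control and 13.9% of the mutant Fabp5 UMIs, while their share of cells was 11.6% and 4.65%. Capillary-like cells held 28.6% and 42.1% of the Fabp5 UMIs, with 18.0% and 26.2% of the cells. Fabp5 also has processed pseudogene copies.

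Pnpla2, the droplet lipase, was low in every class. It lay between 4.45 and 54.3 CPM over the 14 classes in the control library and between 5.44 and 46.5 CPM in the mutant library, and the highest class, monocyte-like cells in the control library, rested on 29 UMIs. Cardiomyocyte-like cells had 29.6 and 32.0 CPM, valve endothelial-like cells 31.1 and 32.5 CPM, and fibroblast-like cells 4.77 and 5.44 CPM. In the control library the interval of fibroblast-like cells (3.60 to 6.19) lay below those of valve endothelial-like (26.9 to 35.7) and arterial-like cells (30.4 to 54.0).

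G0s2, the inhibitor of the Pnpla2 lipase, followed a different map from Pnpla2. In the control library granulocyte-like cells had 347 CPM (261 to 453, 44 cells), valve endothelial-like cells 203 CPM (192 to 214), epicardial-like cells 175 CPM, fibroblast-like cells 118 CPM, cardiomyocyte-like cells 109 CPM and mural-like cells 83.7 CPM. Valve interstitial-like cells had 24.8 CPM. Capillary-like, arterial-like and macrophage-like cells had 2.27, 1.64 and 2.97 CPM. Valve endothelial-like cells thus stood near the other end of the order from capillary-like and arterial-like cells. Lymphatic-like cells lay between them at 29.0 CPM (11.7 to 59.7, 7 UMIs). The ratio of G0s2 to Fabp5 UMIs was 0.0311 in valve endothelial-like and 0.000729 in capillary-like control cells.

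The libraries were then compared within 8 classes of at least 217 cells in each library. A gene was called apart where its mean level reached 10 CPM, it differed at least 1.5-fold and its interval left out 0. Of the 72 combinations of a gene and a class, 52 reached the level floor, 4 were called higher and 2 lower in the mutant library. In valve endothelial-like cells 2 of 8 measured members were called, where 12.3% of all measured genes were. In valve interstitial-like cells 2 of 5 were called, where 5.39% of all genes were, in arterial-like cells 1 of 7 (3.58% of all genes) and in mural-like cells 1 of 6 (3.62%). None was called of 7 in cardiomyocyte-like (2.89% of all genes), 8 in capillary-like (0.806%), 5 in fibroblast-like (1.2%) and 6 in macrophage-like cells (3.69%). With so few members a class, these counts are descriptions. They moved with the cells counted: in female-type cells 7 combinations were higher and 6 lower, and with male-type mutant against female-type control cells 2 were higher and 1 lower.

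**Figure D3:**
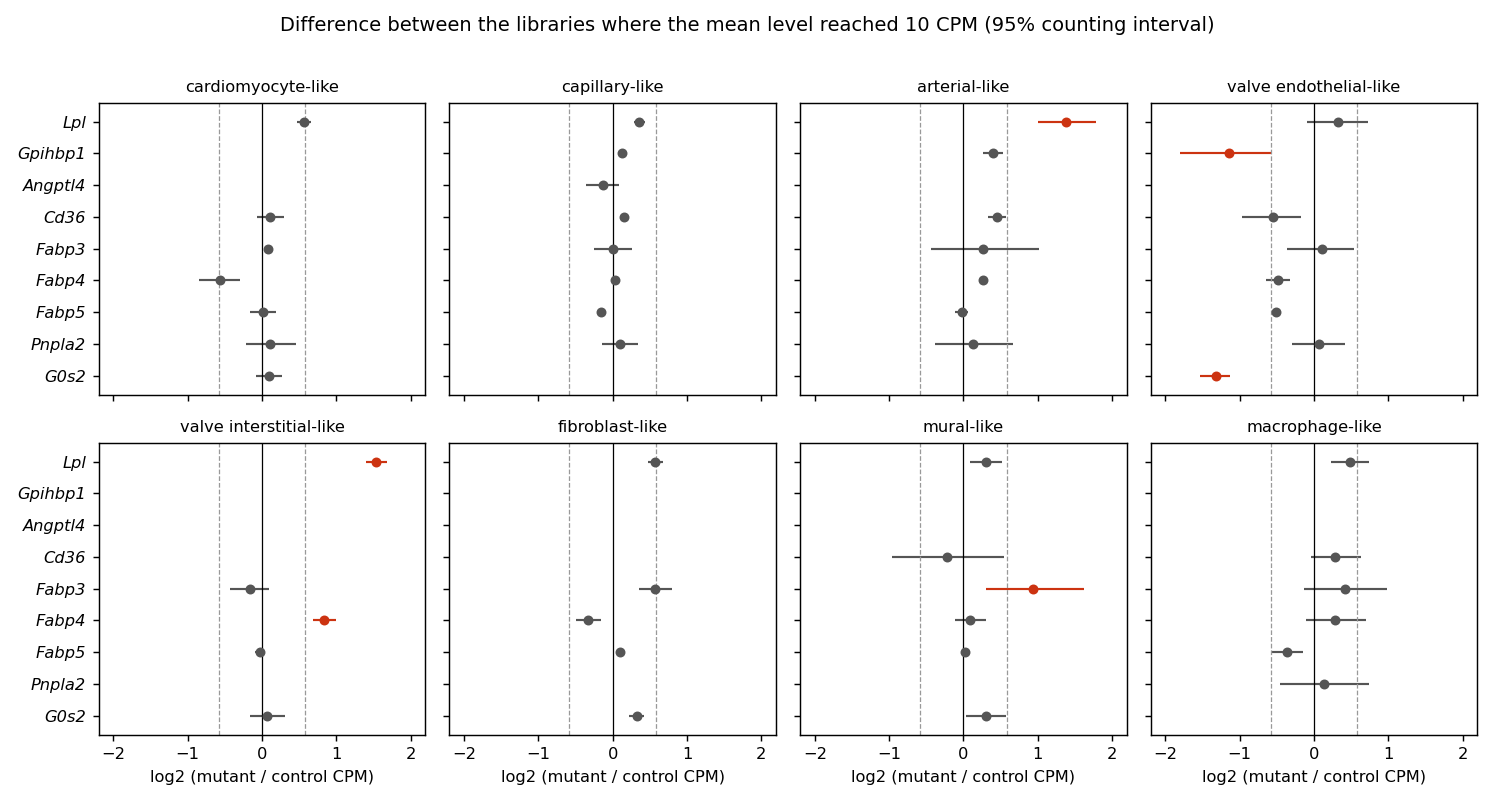
Log2 ratio of mutant over control CPM (x axis) for each gene (y axis) in the 8 classes compared, with 95% counting intervals and dashed lines at 1.5-fold, where the mean level reached 10 CPM and called ratios are red. Lpl lies to the right of 0 in all 8 panels, and G0s2 lies at -1.32 in valve endothelial-like cells and within the dashed lines in the 4 other classes where it was measured.

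Lpl was higher in the mutant library in each of the 8 classes, by log2 ratios of 0.30 to 1.54, and its interval left out 0 in 7 of them. The largest was in valve interstitial-like cells, with 38.8 CPM (35.9 to 42.0) in the control and 113 CPM (106 to 120.0) in the mutant library, a log2 ratio of 1.54 (1.40 to 1.69). Of those cells thinned to 2000 UMIs, 7.12% of the control and 18.5% of the mutant cells had an Lpl UMI. Arterial-like cells had 57.3 CPM (44.7 to 72.4) and 149.9 CPM (133 to 168), a log2 ratio of 1.38 (1.01 to 1.78), which was 0.52 where each cell's class was set from its own markers. The other classes differed less: fibroblast-like cells, whose largest cluster was 5 in the control and 4 in the mutant library, had 0.58 (0.48 to 0.67), cardiomyocyte-like cells 0.56 (0.46 to 0.66), macrophage-like cells 0.48 (0.23 to 0.73), capillary-like cells 0.36 (0.28 to 0.44) and mural-like cells 0.30 (0.08 to 0.52). Valve endothelial-like cells, with 21.7 and 27.1 CPM, had 0.32 (-0.10 to 0.72). The median ratio of all measured genes lay between -0.03 and 0.05 in these classes.

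Within the valve interstitial-like class the difference in Lpl was uneven. Cluster 1, led by Prss35 and Matn4, had 37.6 CPM in the control and 156 CPM in the mutant library, a log2 ratio of 2.05. Cluster 11, led by Prss35 and Dpt, had 45.2 and 107 CPM, and cluster 2, led by Sfrp2 and Tagln, had 36.6 and 63.4 CPM, ratios of 1.24 and 0.79. In the control library the 3 clusters lay close together, and in the mutant library they were spread. The unnamed cluster 3, led by Tcf21 and Aspn, had 182 and 274 CPM of Lpl.

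Markers of heart muscle and capillaries, the classes richest in Lpl, were also counted in the valve interstitial-like cells. The 9 cardiomyocyte markers summed to 469 CPM in the control and 459 CPM in the mutant library, with none at 0. The 9 capillary markers summed to 27.1 and 43.8 CPM, with none at 0 in the control and 1 in the mutant library. Other sums differed more: 6 erythroid markers had 355 and 53.8 CPM, 5 cycling markers 823 and 1338 CPM and 4 platelet markers 18.3 and 3.64 CPM. Their part in the Lpl difference was not tested. In these cells there were 0.917 Lpl UMIs per Fabp4 UMI in the control and 1.49 in the mutant library, against 0.0187 and 0.0235 in capillary-like cells. Per Fabp3 UMI there were 1.78 and 5.80, against 0.131 and 0.183 in cardiomyocyte-like cells. Fibroblast-like cells had 2.16 and 4.04 Lpl UMIs per Fabp4 UMI, and 5.40 per Fabp3 UMI in both libraries. What Lpl RNA or cells of other classes add to the valve interstitial-like values was not tested.

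G0s2 was lower in the mutant library in valve endothelial-like cells, with 203 CPM (192 to 214) in the control and 81.0 CPM (71.1 to 91.8) in the mutant library, a log2 ratio of -1.32 (-1.53 to -1.13). Of the thinned cells, 26.3% in the control and 13.3% in the mutant library had a G0s2 UMI. Both clusters showed it. Cluster 7 had 268 and 117 CPM, a log2 ratio of -1.19, and cluster 12 had 115 and 35.4 CPM, a ratio of -1.69. In the other classes where G0s2 was measured the ratio was 0.33 (0.22 to 0.43) in fibroblast-like, 0.30 (0.04 to 0.57) in mural-like, 0.10 in cardiomyocyte-like and 0.07 in valve interstitial-like cells. Pnpla2, the lipase that G0s2 inhibits, had 31.1 and 32.5 CPM in the same class, where its ratio was 0.07 (-0.30 to 0.42).

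Other members were lower with G0s2 in the valve endothelium. Fabp5 had a log2 ratio of -0.51 (-0.54 to -0.49), Fabp4 of -0.49 (-0.65 to -0.32) and Cd36 of -0.56 (-0.97 to -0.17), each under 1.5-fold. Gpihbp1, with 21.0 CPM (135 UMIs) in the control and 9.37 CPM (28 UMIs) in the mutant library, had -1.14 (-1.81 to -0.57), a call lost in 7 of 15 alternatives. The 2 clusters differed: Fabp4 had 224 and 125 CPM in cluster 7 and 154 and 155 CPM in cluster 12, and Cd36 had 44.1 and 25.3 CPM and 23.0 and 21.8 CPM. The median over the 8 measured members was -0.50, and that of all measured genes 0.05. In the same cells the 9 valve interstitial markers summed to 735 CPM in the control and 304 CPM in the mutant library, 6 erythroid markers to 548 and 18.7 CPM, the 9 capillary markers to 374 and 353 CPM, and the 9 valve endothelial markers to 3226 and 3792 CPM. The 4 monocyte markers summed to 3.88 and 71.9 CPM and the 8 macrophage markers to 13.2 and 44.5 CPM. The part these sums play in the G0s2 and Gpihbp1 differences was not tested.

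How low the vessel genes were in the valve endothelium depended on which mutant cells were counted. Gpihbp1 had 20.5 CPM in female-type control cells, 4.28 CPM in female-type mutant cells and 14.1 CPM in male-type mutant cells. Fabp4 had 194, 66.7 and 238 CPM in the same order and Cd36 had 35.3, 11.01 and 37.1 CPM. The male-type and female-type mutant cells thus lay on either side of the control for Fabp4 and Cd36, with log2 ratios of male-type over female-type cells of 1.83 (1.51 to 2.17) and 1.73 (0.92 to 2.64). G0s2 was lower in both, with 204 CPM in female-type control, 89.3 CPM in female-type mutant and 66.2 CPM in male-type mutant cells. Fabp5 was lower in both, at 6510.1, 4283 and 4964 CPM. Male-type and female-type cells come from different embryos, so embryo and sex cannot be told apart.

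**Figure D4:**
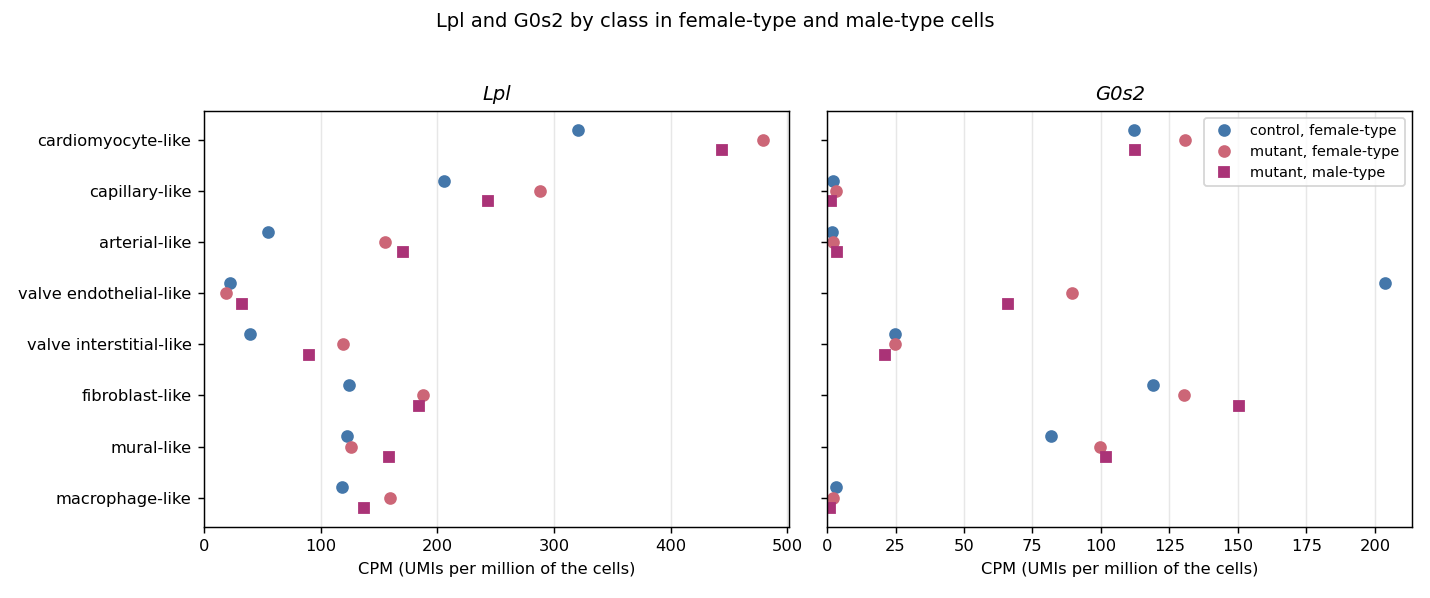
Level of Lpl (left) and G0s2 (right) in CPM (x axis) in the 8 classes (y axis) for female-type control cells (blue circles), female-type mutant cells (red circles) and male-type mutant cells (purple squares). In valve interstitial-like cells both mutant sets lie above the control for Lpl (119 and 89.99 against 39.0 CPM), and in valve endothelial-like cells both lie below it for G0s2.

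Lpl was higher in both sets of mutant cells in the valve interstitial-like class, with 39.0 CPM in female-type control, 119 CPM in female-type mutant and 89.99 CPM in male-type mutant cells. The ratios over the control were 1.62 (1.46 to 1.78) and 1.21 (0.98 to 1.43). In arterial-like cells Lpl had 55.2, 155 and 170.2 CPM in the same order. In mural-like cells the female-type mutant cells, at 126 CPM, were close to the 123 CPM of the control, and the male-type cells had 159 CPM. In valve endothelial-like cells Lpl was not higher in both sets: it had 22.1 CPM in female-type control, 19.0 CPM in female-type mutant and 32.7 CPM in male-type mutant cells, with ratios of -0.20 (-0.83 to 0.35) and 0.58 (-0.00 to 1.10).

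The 2 remaining calls were on low levels. Fabp4 in valve interstitial-like cells had 42.3 CPM (39.2 to 45.6) in the control and 75.8 CPM (70.3 to 81.6) in the mutant library, a log2 ratio of 0.84 (0.69 to 0.99), but 7.73% and 8.35% of the thinned cells had a UMI. Gpihbp1 and Cd36, below the level floor there, had 4.32 and 8.77 CPM and 5.31 and 13.3 CPM, and the capillary marker sum given above was also higher in the mutant library. By cluster, Fabp4 had 48.0 and 102 CPM in cluster 1, 37.5 and 78.1 CPM in cluster 11, and 38.6 and 36.7 CPM in cluster 2. With doublets kept in, the Fabp4 ratio was -0.21. Female-type and male-type mutant cells had 61.5 and 51.8 CPM of Fabp4, against 42.9 CPM in female-type control cells. The ratios were 0.52 (0.33 to 0.70) and 0.27 (-0.01 to 0.54), and neither was called. Both mutant levels lay below the 75.8 CPM of the whole class, which also holds cells of neither type. Over all kept cells Fabp4 had 2054 CPM in the control and 2985 CPM in the mutant library, as capillary-like cells made up a larger share. Fabp3 in mural-like cells had 12.7 CPM (28 UMIs) and 24.5 CPM (78 UMIs), a log2 ratio of 0.93 (0.31 to 1.63). That call was lost in 5 of 15 alternatives.

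In heart muscle Lpl was higher and Fabp4 lower in the mutant library, each under 1.5-fold, and the other measured members differed little. Fabp3 had a log2 ratio of 0.08 (0.04 to 0.12), Cd36 of 0.11 (-0.07 to 0.29), G0s2 of 0.10 (-0.07 to 0.27), Pnpla2 of 0.11 (-0.22 to 0.45) and Fabp5 of 0.01 (-0.16 to 0.19). For Fabp5 that ratio joined 0.21 (-0.02 to 0.43) in female-type and -0.52 (-0.77 to -0.28) in male-type mutant cells, both against female-type control cells. Fabp4, at 53.7 and 36.2 CPM, had -0.57 (-0.85 to -0.29). Over female-type control cells its ratio was -0.88 (-1.36 to -0.44) in female-type and -0.33 (-0.69 to 0.02) in male-type mutant cells. Capillary-like cells had 0.12 (0.08 to 0.16) for Gpihbp1, 0.15 (0.11 to 0.19) for Cd36, 0.03 (0.02 to 0.04) for Fabp4, -0.16 (-0.18 to -0.14) for Fabp5 and -0.14 (-0.36 to 0.09) for Angptl4. Over female-type control cells, the capillary-like intervals of Gpihbp1, Cd36 and Fabp4 lay above 0 in female-type mutant cells and spanned 0 in male-type ones. Counting error does not include differences between embryos, so intervals as narrow as these leave that source out.

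A wider list of 83 lipid genes gave the setting. All 83 were found, and 38 to 51 of them reached the level floor in a class. Over the 8 classes, 16 of 365 measured combinations were called higher and 14 lower in the mutant library, where 0.806% to 12.3% of all measured genes were called in a class. In heart muscle Acadl and Etfb, of fatty acid oxidation, were highest of all classes at 857 and 678 CPM in the control library, and Ppargc1a, a coactivator of oxidative genes, had 158 CPM. Apoe, the lipoprotein ligand, was highest in macrophage-like cells at 24139 CPM in the control and 22855 CPM in the mutant library, with Apoc1 and Apoc2 highest in monocyte-like cells. Cav1, a caveola protein, and Mgll, which splits monoglycerides, were highest in arterial-like cells at 1953 and 345 CPM, with capillary-like cells next at 1460 and 315 CPM. Dbi, which binds acyl-CoA, was highest in valve interstitial-like cells at 2772 and 1951 CPM, and Fabp7, another carrier, in mural-like cells at 569.9 and 634 CPM. The droplet coat genes Plin2 and Plin3 led in macrophage-like and epicardial-like cells at 160.2 and 142 CPM, and Agpat2, of triglyceride synthesis, in granulocyte-like cells at 219 CPM. Acsl3, Acsl1 and Acsl4, which activate fatty acids, led in melanocyte-like or granulocyte-like cells, with 83.5 and 96.96 CPM of Acsl3 and Acsl1 in cardiomyocyte-like cells. Scd2, a desaturase, led in lymphatic-like cells at 393 CPM, and Acaa2, of fatty acid oxidation, in epicardial-like cells at 808 CPM. Lipa, Pnpla8, Fasn, Elovl6, Cebpb and Cebpd were highest in valve endothelial-like, granulocyte-like, melanocyte-like, melanocyte-like, monocyte-like and granulocyte-like cells in that order. Ranks led by melanocyte-like or granulocyte-like cells rest on 45 and 44 control cells. Melanocyte-like cells had 59.4 CPM of Fasn and 55.1 CPM of Elovl6 in the control library, and 5.93 CPM of each in the mutant library. The mutant value rests on 20 cells with 168729 UMIs of all genes, and this class was not among the 8 compared.

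In the valve endothelium, where 12.3% of all measured genes were called, 4 genes of the wider list were called higher and 5 lower of 42 measured, with a median of -0.07. The lysosomal lipase gene Lipa had 114 and 203 CPM, a log2 ratio of 0.83 (0.67 to 0.99), and Dgat1, of triglyceride synthesis, had 9.17 and 19.1 CPM, a ratio of 1.06. Apoc1 was lower at 29.4 and 11.4 CPM, and the transcription factor Cebpd at 77.8 and 33.5 CPM, with a log2 ratio of -1.21 (-1.54 to -0.91). Scarb1, Cav1 and Mgll were also lower there and Acadvl and Cebpb higher. In valve interstitial-like cells 5 of 47 were called higher and none lower, where 5.39% of all genes were called. Ucp2, a mitochondrial carrier, had 22.9 and 47.5 CPM, and Cav1, also a gene of vessel cells, had 13.02 and 25.6 CPM. Cebpb had 22.9 and 43.2 CPM, Ppargc1a had 13.8 and 24.0 CPM, and Furin had 41.1 and 63.0 CPM. Apoe was lower in fibroblast-like cells, with 1179 CPM in the control and 339.5 CPM in the mutant library, a log2 ratio of -1.80 (-1.85 to -1.75), in mural-like cells (309 and 179 CPM), in arterial-like cells (90.1 and 31.8 CPM) and in capillary-like cells (87.5 and 37.6 CPM). In cardiomyocyte-like cells it was higher, with 72.8 and 128 CPM. Apoe was the most abundant gene of the list in macrophage-like cells, and what RNA from them adds elsewhere was not tested. In the remaining classes the other calls were Fitm2, of droplet formation, higher and Acsl4 and Acaca lower in cardiomyocyte-like cells, Acsl5 and Slc25a20 higher in arterial-like cells and Ucp2 higher in fibroblast-like cells. In mural-like cells Cav1 and Sel1l were higher and Acaca lower, and in macrophage-like cells Acot2 and Sel1l were lower. At a level floor of 50 CPM, 4 combinations of the list were higher and 7 lower.

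Across 53 sums of a cluster in a library, each of at least 100000 UMIs, levels on the log2(CPM + 1) scale were correlated as a description, since the sums share libraries and depth. Gpihbp1 and Fabp4 were most like each other, with Pearson's r of 0.96, and Cd36 was most like Gpihbp1 (0.87). Fabp3 was most like the troponin gene Tnnt2 (0.97), Tnni1 (0.92) and Myl3 (0.91), of the muscle filament. Gpihbp1 was also like Ushbp1 and the endothelial receptor Robo4 (0.94 each), Cd36 like Clec1a (0.86) and N4bp3 (0.85), and Fabp4 like Pcdh17 and Clec1a (0.93 each). Angptl4 was most like Prcp (0.76), C1qtnf9 (0.75) and Btnl9 (0.74). The likeness was weaker for the spread genes: Fabp5 to Uaca (0.80), Hdac7 (0.78) and Gpr182 (0.78), Lpl to Cdk6 (0.73), Tubb6 (0.72) and Ppp1r9a (0.69), G0s2 to Tmtc1 (0.73), Smarca1 (0.73) and Gata4 (0.72), and Pnpla2 to Dazap2 (0.73), Akirin1 (0.73) and S100a13 (0.72). Between G0s2 and Pnpla2 r was -0.37, and between G0s2 and Gpihbp1 it was -0.56.

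Set beside the sequences printed at the start, Lpl and G0s2 both hold the heptamer matching miR-27a-3p and miR-27b-3p. Their log2 ratios were 1.54 and 0.07 in valve interstitial-like cells and 0.32 and -1.32 in valve endothelial-like cells. Of these, the intervals of G0s2 in valve interstitial-like and Lpl in valve endothelial-like cells spanned 0. Other members share heptamers too, among them Lpl and Angptl4, and Cd36 and Fabp3. Fabp4, which held none of the 27 heptamers, had log2 ratios between -0.57 in cardiomyocyte-like and 0.84 in valve interstitial-like cells. The latter was -0.21 with doublets kept in. No microRNA was measured, and any part of microRNAs in these ratios was not tested.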

How the data were processed

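Single cells of mitral leaflets were captured with 10x 3′ version 3 kits after a trypsin digest and a sort for viable cells, per the labels' protocols. The deposited values are raw UMI counts per gene and barcode. The submitters' processing notes name Cell Ranger 5.0.0 and build mm10 for the steps the authors ran. The annotation release and counting options are not given in the sources used here. The files held 12793 control and 8250 mutant barcodes with 70221728 and 69475632 UMIs.

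Barcodes with at least 500 genes, 1000 UMIs and under 20% mitochondrial counts were kept, and doublets called by Scrublet (scanpy 1.11.5; 462 and 213 barcodes, 4.29% and 3.33%, against expected rates of 8.61% and 5.12%) were removed. The mitochondrial limit alone removed 11.4% and 16.8% of the barcodes. Both libraries were clustered together (2000 variable genes, 30 components, 15 neighbours, leidenalg 0.10.2 at resolution 0.8) without the 92 lipid genes. A cluster took the name of a marker list that led the next by 0.5 log2 units with at least 3 markers found. Shallow clusters stayed unnamed. This lead and the shallow-cluster step were set after the clusters and the levels of the 9 genes had been seen. UMIs were summed per class and library. A ratio is the log2 quotient of the mutant and control levels after adding 0.5 counts to each, with an exact conditional Poisson interval from scipy 1.17.1. Levels have exact Poisson intervals. The ratio step was tested on simulated Poisson counts. These hold no spread between cells, embryos or libraries, so that test bears on counting error only. For shares at matched depth, 509 control and 417 mutant cells under 2000 UMIs were left out. Female-type cells had an Xist UMI and none of 4 Y-linked genes.

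The 9 genes, the marker lists, the lipid list and the 29 microRNAs were chosen with earlier results of these data known, and the microRNAs were picked by hand after the levels had been seen. All 9 genes were drawn in every named class, and the text gives values for a part of these combinations. Of the wider list, up to 3 genes per role with the highest control level and every called gene were named. The plan had set a limit of 4 called genes per class, which was passed in valve endothelial-like and valve interstitial-like cells. The 3 genes most correlated with each member were also named, among genes reaching 50 CPM in at least 1 sum. MicroRNA sequences came from the RefSeq table (all 29 matched) and 3′ untranslated regions from GENCODE transcripts on GRCm38, taking the longest per gene. Alternatives changed the barcode filter, doublet removal, resolution, variable genes, class assignment, scaling, depth, sex-type, cluster weights, added count, level floor and fold.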

Additional observations from a re-analysis of the deposited data

Results flagged for a closer look

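The log2 ratios of 5 genes pointed opposite ways in different cell classes, with intervals that left out 0 on both sides, and none of these differences between classes was tested. Many were under 1.5-fold. Gpihbp1 had -1.14 (-1.81 to -0.57) in valve endothelial-like cells, against 0.12 (0.08 to 0.16) in capillary-like and 0.40 (0.26 to 0.54) in arterial-like cells. Over female-type control cells, its valve endothelial-like ratio was -2.17 (-3.60 to -1.18) in female-type and -0.50 (-1.39 to 0.22) in male-type mutant cells. In capillary-like cells these ratios were 0.19 (0.14 to 0.23) and -0.005 (-0.05 to 0.04), and in arterial-like cells both lay above 0. Cd36 had -0.56 (-0.97 to -0.17) in valve endothelial-like cells, against 0.15 (0.11 to 0.19) in capillary-like and 0.45 (0.33 to 0.57) in arterial-like cells. Against female-type control cells, that valve endothelial-like ratio was -1.65 (-2.46 to -0.99) in female-type and 0.08 (-0.44 to 0.55) in male-type mutant cells. In capillary-like cells the Cd36 ratios were 0.28 (0.23 to 0.33) and 0.02 (-0.03 to 0.08), and in arterial-like cells both lay above 0. G0s2 had -1.32 (-1.53 to -1.13) in valve endothelial-like cells, against 0.33 (0.22 to 0.43) in fibroblast-like and 0.30 (0.04 to 0.57) in mural-like cells. By sex-type, both valve endothelial-like ratios of G0s2 lay below 0. In fibroblast-like cells they were 0.13 (-0.01 to 0.27) in female-type and 0.34 (0.21 to 0.47) in male-type mutant cells. In mural-like cells both intervals spanned 0.

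Fabp4 had 0.84 (0.69 to 0.99) in valve interstitial-like, 0.26 (0.22 to 0.31) in arterial-like and 0.03 (0.02 to 0.04) in capillary-like cells. Against these, Fabp4 had -0.57 (-0.85 to -0.29) in cardiomyocyte-like, -0.49 (-0.65 to -0.32) in valve endothelial-like and -0.33 (-0.49 to -0.16) in fibroblast-like cells. By sex-type, the valve endothelial-like ratio over female-type control cells was -1.53 (-1.83 to -1.25) in female-type and 0.30 (0.10 to 0.49) in male-type mutant cells. The capillary-like ratios of Fabp4 were 0.07 (0.06 to 0.09) and -0.003 (-0.02 to 0.01) in the same order. Fabp5 had 0.10 (0.06 to 0.13) in fibroblast-like cells, against -0.16 (-0.18 to -0.14) in capillary-like, -0.51 (-0.54 to -0.49) in valve endothelial-like and -0.36 (-0.58 to -0.14) in macrophage-like cells.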

How the results depend on the processing

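No paired analysis was possible because each genotype has 1 library, and no library could be left out. Of the 6 called ratios under 89 alternatives in all, 71 stayed called in the same direction, 17 lost the call and 1 reversed. Not every alternative could remove a call: a floor of 2 CPM never can, and equal cluster weights leave a 1-cluster class unchanged. The other floor and the fold of 2 reuse the main ratio. The counts of calls that stayed therefore include alternatives that were bound to keep a call. G0s2 in valve endothelial-like cells (-1.61 to -1.19) and Lpl in valve interstitial-like cells (1.21 to 1.66) stayed called in 15 of 15. Lpl in arterial-like cells lost the call in 1 of 14 (0.52 with the class set per cell), and under the stricter barcode filter no arterial-like class was found. Gpihbp1 in valve endothelial-like cells lost it in 7 of 15 (-2.17 to -0.10) and Fabp3 in mural-like cells in 5 of 15 (0.54 to 0.9998). Fabp4 in valve interstitial-like cells lost it in 4 of 15 and reversed to -0.21 without doublet removal. The cause was not tested.

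Against 4 combinations higher and 2 lower, 1 was lower under the stricter barcode filter (7 classes), without doublet removal, at resolution 1.5, when clustering without genes apart between the libraries and at a level floor of 50 CPM. With the class set per cell 4 were lower. In female-type cells 7 were higher and 6 lower, and with male-type mutant against female-type control cells 2 were higher and 1 lower. At a floor of 2 CPM 7 were higher, and at 2-fold 2 were higher. The wider list went from 16 higher and 14 lower to 4 and 7 at a floor of 50 CPM. The highest control class moved to arterial-like for Cd36 under 4 alternatives and to valve endothelial-like for G0s2 (202 against 192 CPM) under the stricter filter. With the class set per cell the capillary-like share of control UMIs fell to 20.5% for Lpl (from 29.3%), 61.2% for Gpihbp1 (88.4%), 54.9% for Cd36 (76.8%), 63.4% for Fabp4 (89.5%) and 38.4% for Angptl4 (59.4%). That setting left cells without a clear leading class unlabelled and named 1226 control cells capillary-like, against 1857. The fall therefore does not show how many of these UMIs lie in other cell classes. The 26 matches of a gene and a heptamer stayed 26 with any annotated untranslated region. Members with few UMIs, such as Angptl4 outside capillary-like cells, have wide intervals at this depth.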
